A study of Mus musculus with 14 samples.

Results

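The genes described here handle iron, or bind zinc and copper as metallothioneins, in the mouse retinal pigment epithelium (RPE), the cell layer that nourishes the photoreceptors and engulfs their shed tips. The group was chosen by gene symbol: transferrin (Tf), the transferrin receptor (Tfrc), the divalent metal transporter Slc11a2, the ferritin heavy and light chains (Fth1, Ftl1), the exporter ferroportin (Slc40a1), the ferroxidases hephaestin (Heph) and ceruloplasmin (Cp), and the metallothioneins Mt1 and Mt2. All 10 were found among the 42687 genes of the count table, with transferrin listed there under its GENCODE symbol Trf, and all 10 passed the filter on low counts in every comparison. The study asked what loss of the chloride intracellular channel protein Clic4 from the RPE does to this tissue, and RNA from purified RPE of 14 mice was sequenced. The knockout (KO) mice carried Best1-Cre+/- and Clic4f/f, and they were compared in 3 sets with wild-type C57BL/6J mice (WT, 3 WT and 3 KO libraries), with Clic4f/f mice without Cre (Ctrl, 2 and 2 libraries), and with Best1-Cre+/- mice without floxed alleles (CreCtrl, 2 and 2 libraries). All mice were male, 3 months old and on the C57BL/6J background, and each library held the RPE of both eyes of a mouse. Best1-Cre removes Clic4 in RPE cells after birth and leaves the gene intact in other cells that come along in the preparation.

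RPE cells take up iron from the blood as iron-loaded transferrin through Tfrc, and Slc11a2 then carries the iron out of the endosome. Iron that is not used at once is stored in ferritin, a shell of heavy and light chains, and it leaves the cell through ferroportin, aided by Heph or Cp, which oxidise it. Metallothioneins are small cysteine-rich proteins that bind zinc and copper and are induced by metals and by stress. Mice that lack both Cp and Heph accumulate iron in the RPE, which is why these genes are studied in retinal degeneration.

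Part of this control is written into the messenger RNAs. Iron regulatory proteins bind a hairpin, the iron-responsive element, which blocks translation when it lies in the 5′ UTR and protects the message from decay when it lies in the 3′ UTR. In the GENCODE transcripts (GRCm38), a hairpin made of an unpaired C, 5 bases, the loop CAGTGN with any last base but G, and 5 bases that pair with the first (G paired with T allowed) was found in 4 of the 10 genes. These are shown because the receptor and the ferritins carry them on opposite ends of their messages, with the unpaired C and the loop in capitals and up to 5 flanking bases on each side.
Fth1, 5′ UTR, chr19:9982733-9982759, plus strand: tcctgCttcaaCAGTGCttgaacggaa
Ftl1, 5′ UTR, chr7:45459780-45459806, minus strand: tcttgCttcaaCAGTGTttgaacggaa
Slc40a1, 5′ UTR, chr1:45925466-45925492, minus strand: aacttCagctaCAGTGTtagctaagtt
Tfrc, 3′ UTR, chr16:32631220-32631246, plus strand: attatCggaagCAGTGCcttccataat
Tfrc, 3′ UTR, chr16:32631599-32631625, plus strand: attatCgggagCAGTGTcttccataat
Tfrc, 3′ UTR, chr16:32631664-32631690, plus strand: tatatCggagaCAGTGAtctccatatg
Tfrc, 3′ UTR, chr16:32631711-32631737, plus strand: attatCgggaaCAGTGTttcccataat
Such a hairpin was found in the 5′ UTR of 0.108% of the 21200 genes with an annotated 5′ UTR and in the 3′ UTR of 0.503% of the 21849 genes with a 3′ UTR, whatever the length of these regions. The pattern allows no further unpaired base in the stem, so a gene without a match, such as Slc11a2, may still carry an element of another shape. The match describes letters only, and the RNA counts do not show translation.

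The metallothioneins sit side by side on chromosome 8, and metal-responsive transcription factor 1 switches them on through metal response elements. Their promoters are shown because the pair moved together in the data below. Each run holds 250 bases before and 50 after the RefSeq start site (GRCm38.p6), with the cores TGCACNC and TGCGCNC, read on either strand, in capitals.
Mt1, chr8:94178839-94179138, plus strand: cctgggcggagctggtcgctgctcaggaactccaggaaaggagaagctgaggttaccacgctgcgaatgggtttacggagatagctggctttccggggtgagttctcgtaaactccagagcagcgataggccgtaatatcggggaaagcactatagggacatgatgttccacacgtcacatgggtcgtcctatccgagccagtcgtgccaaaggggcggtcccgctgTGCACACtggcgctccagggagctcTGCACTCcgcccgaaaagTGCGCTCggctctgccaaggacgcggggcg
Mt2, chr8:94172368-94172667, plus strand: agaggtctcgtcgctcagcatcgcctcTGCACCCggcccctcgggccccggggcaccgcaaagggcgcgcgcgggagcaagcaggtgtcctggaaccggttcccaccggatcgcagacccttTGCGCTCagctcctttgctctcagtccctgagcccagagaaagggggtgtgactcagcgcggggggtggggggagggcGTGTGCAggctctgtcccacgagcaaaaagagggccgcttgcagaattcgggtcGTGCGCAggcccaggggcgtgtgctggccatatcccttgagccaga
The Mt1 window held 3 cores and the Mt2 window held 4, none of them overlapping. In Mt1 the cores TGCACTC and TGCGCTC lay after the start site, as did GTGCGCA in Mt2. Of 32851 promoter windows of this length, 25.7% held at least 1 core, 1.97% at least 3 and 0.517% at least 4. Entries were matched for 6 of the 10 genes, of which Cp, Fth1 and Ftl1 held no core, while 1 of the 2 windows of Tfrc held 2 that overlap each other.

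The libraries held between 9828293 and 32384166 counted reads, so that the least abundant gene, Slc40a1, rested on 1 to 202 reads per library and the other genes on at least 125. Values are given as CPM, reads per gene relative to the library total and scaled by TMM within each set, and a gene was called where edgeR's quasi-likelihood test gave a Benjamini-Hochberg adjusted p under 0.05 over all genes tested. Clic4 was measured at 242, 248 and 240 CPM in the WT libraries and at 32.6, 22.5 and 17.9 CPM in the matching KO libraries. It was at 69.1 and 59.4 CPM in Ctrl against 9.39 and 32.6 CPM in their KO, and at 86.4 and 108 CPM in CreCtrl against 13.2 and 30.4 CPM in their KO. Clic4 was called lower against WT and CreCtrl (adjusted p = 3.3e-05 and 0.0132) but not against Ctrl (-1.61 ± 0.58, adjusted p = 0.333). The targeted gene thus did not pass in the Ctrl set, so an absence of calls there cannot be read as an absence of change. The make-up of the libraries also moved with genotype. The summed level of 10 RPE genes was 16517 to 24900 CPM in WT and 71720 to 78705 CPM in KO, 44140 to 44607 against 67998 to 70334 CPM in the Ctrl set, and 49782 to 56944 against 68049 to 76345 CPM in the CreCtrl set, with 1 gene of the list, Ttr, making up 36.8 to 55.8% of it. Fibroblast genes went the other way, with sums of 8575 to 8963 CPM in WT against 283 to 843 CPM, 1268 to 2406 against 129 to 311 CPM, and 1418 to 2948 against 295 to 378 CPM. Erythrocyte genes, whose products hold much of the iron and haem of blood, were called lower against WT in 5 of 5 cases, with sums of 370 to 645 CPM in WT against 142 to 196 CPM in KO, 145 to 256 against 77.5 to 207 CPM in the Ctrl set, and 109 to 756 against 27.5 to 77.9 CPM in the CreCtrl set. Pericyte and smooth muscle genes summed to 2486 to 2584 CPM in WT against 378 to 473 CPM in KO, and melanocyte and Schwann cell genes to 875 to 1034 against 2555 to 2801 CPM. Rod genes overlapped between WT and KO and were called lower against CreCtrl in 9 of 10 cases, at 1167 to 4723 against 557 to 609 CPM. The part of these cells in the results below was not tested. The 17 immediate-early genes, which respond to handling within minutes, were lower in every KO library than in every control library of each set. So were 28.3%, 22.7% and 36.8% of all genes tested in the WT, Ctrl and CreCtrl sets. Of all genes tested, 19.0% were called lower against WT and 12.2% against CreCtrl. In bulk RNA, fewer cells of a type and less RNA per cell cannot be told apart.

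Per kilobase of exon, the metallothioneins and the ferritins dominated the group. Over the 14 libraries the median level was 2533 RPKM for Mt2, 2340 RPKM for Mt1, 679 RPKM for Ftl1, 508 RPKM for Fth1 and 265 RPKM for Tf. The membrane transporters and ferroxidases followed far below, with medians of 10.3 RPKM for Slc11a2, 7.91 RPKM for Heph, 7.56 RPKM for Tfrc, 4.26 RPKM for Cp and 0.324 RPKM for Slc40a1. The steps from Mt1 to Ftl1 and from Tf to Slc11a2 held in all 14 libraries, and that from Cp to Slc40a1 in 13. Neighbours closer together changed places: Ftl1 exceeded Fth1, Slc11a2 exceeded Heph, Heph exceeded Tfrc and Tfrc exceeded Cp in 10 of 14 libraries each, while Mt2 exceeded Mt1 and Fth1 exceeded Tf in 12. The order within the ferritins and within the metallothioneins rests on the merged exon length, 3469 bases for Fth1, 1340 for Ftl1, 1246 for Mt1 and 588 for Mt2. By reads alone, Fth1 exceeded Ftl1 and Mt1 exceeded Mt2 in every library. The 4 libraries with Ftl1 below Fth1 per kilobase were those of the Ctrl set, whose Ftl1 level is described below.

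**Figure D1:**
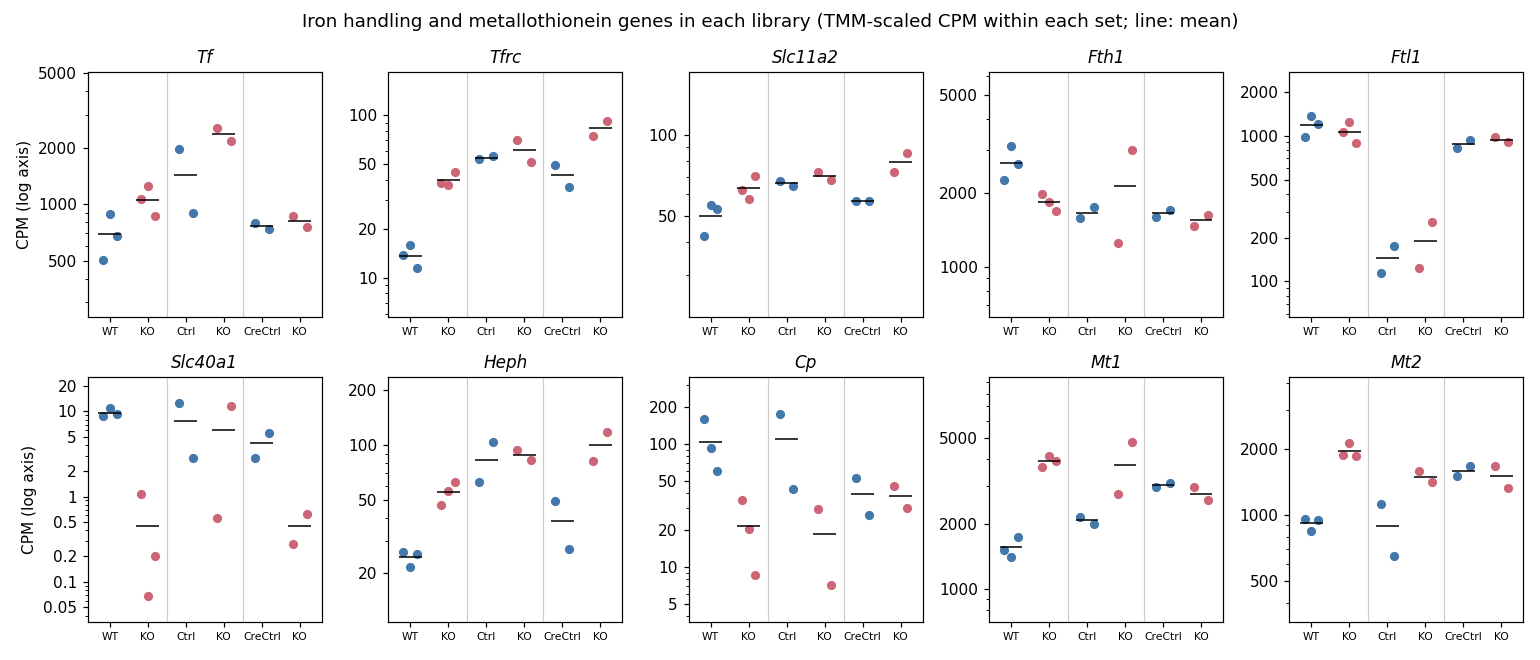
Each panel plots a gene's CPM (log axis, scaled within each set) in every library, with controls in blue, KO in red and the group mean as a line. Tfrc, Heph, Mt1 and Mt2 lie higher in all 3 KO libraries of the WT set than in all 3 WT libraries, and Slc40a1 lies lower in them. In the Ctrl set a KO library stands at 11.6 CPM of Slc40a1.

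Among the uptake genes, the transferrin receptor was the one called against WT and against CreCtrl. Tfrc was measured at 13.7, 15.8 and 11.5 CPM in the WT libraries and at 38.0, 37.0 and 44.4 CPM in their KO. The groups did not overlap, and every KO library held more than 2 times the level of any WT library. Tfrc rose with KO against WT by 1.54 ± 0.20 on the log2 scale (SE, n = 3 and 3, adjusted p = 0.000609). Against CreCtrl, at 49.1 and 36.0 CPM, the KO libraries stood at 74.5 and 92.3 CPM, again above both controls, and Tfrc rose by 0.97 ± 0.20 (adjusted p = 0.0247). Against Ctrl the groups overlapped, with 53.5 and 55.8 CPM in Ctrl and 70.5 and 51.2 CPM in KO, and the difference of 0.15 ± 0.25 did not pass (adjusted p = 0.924). The KO effect on Tfrc was larger in the WT set than in the Ctrl set by 1.52 ± 0.29 (adjusted p = 0.0151), where 5.15% of the 17662 genes tested passed. The call against CreCtrl rested on the KO library at 92.3 CPM, without which the adjusted p was 0.0783.

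Transferrin itself, which RPE cells also make and secrete, was abundant and variable. Tf stood at 503, 890 and 678 CPM in WT and at 1066, 1243 and 862 CPM in their KO, with 1 KO library below the highest WT library. The difference of 0.61 ± 0.22 missed the threshold (adjusted p = 0.0634), and it passed with DESeq2 (adjusted p = 0.00991). The Ctrl libraries differed from each other by more than 2-fold, at 1957 and 896 CPM, against 2538 and 2167 CPM in KO (0.72 ± 0.43, adjusted p = 0.670). Against CreCtrl the 793 and 738 CPM of the controls and the 864 and 752 CPM of KO overlapped (0.08 ± 0.19, adjusted p = 0.786). Tf shares 2108 exon bases on the same strand with the read-through gene model Gm20425, which was counted at no more than 3 reads in any library, so reads that could belong to both may be missing from its counts.

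Slc11a2, which moves iron out of the endosome, was the steadiest gene of the group, with levels that spanned only 1.44-fold over the 7 KO libraries. It was at 42.0, 54.6 and 52.8 CPM in WT and at 62.4, 57.8 and 70.2 CPM in their KO, and at 56.8 and 56.5 CPM in CreCtrl against 72.6 and 86.0 CPM. KO lay above the controls in both sets without passing the test, at 0.35 ± 0.15 (adjusted p = 0.120) and 0.48 ± 0.15 (adjusted p = 0.0665). The 67.5 and 64.6 CPM of Ctrl stood against 72.8 and 67.8 CPM, a difference of 0.09 ± 0.21 (adjusted p = 0.956).

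With TMM scaling, the RNA of both ferritin chains changed by less than 1.5-fold in every set, and the stored iron was not measured. Fth1 was at 2246, 3105 and 2617 CPM in WT and at 1985, 1836 and 1682 CPM in their KO. Every KO value was below every WT value, and Fth1 fell by 0.54 on the log2 scale with an SE of 0.15 (adjusted p = 0.0259), less than the 1.5-fold change used to name differentially expressed genes. The call was lost on leaving out WT replicate 2 (adjusted p = 0.0904), KO replicate 2 (0.120) or KO replicate 3 (0.154). The 1576 and 1748 CPM of Ctrl lay between the 1255 and 3000 CPM of KO, so that KO replicate 2 alone was high (0.36 ± 0.45, adjusted p = 0.897). The 1592 and 1706 CPM of CreCtrl overlapped with 1462 and 1632 CPM in KO (-0.09 ± 0.20, adjusted p = 0.755).

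The light chain behaved differently between sets rather than between genotypes. Ftl1 was at 978, 1374 and 1213 CPM in WT and at 1060, 1249 and 899 CPM in their KO, and at 826 and 931 CPM in CreCtrl against 974 and 905 CPM in KO. The groups overlapped in both sets, with differences of -0.15 ± 0.17 (adjusted p = 0.554) and 0.10 ± 0.19 (adjusted p = 0.733). In the Ctrl set all 4 libraries were far lower, at 114.7 and 174 CPM in Ctrl and at 123 and 254 CPM in KO (0.38 ± 0.41, adjusted p = 0.867). On a common scaling over all libraries, Ftl1 ranged from 119 to 264 CPM in the 4 libraries of that set and from 827 to 1291 CPM in the other 10, and it was the only gene of the group whose ranges did not overlap. The same 4 libraries were low in other genes that have many processed copies in the genome, chosen after their values were seen. The glycolytic gene Gapdh ranged from 4.17 to 10.6 CPM there and from 289 to 1045 CPM elsewhere, and 83 ribosomal protein genes summed to 2376 to 3803 CPM there and to 9328 to 17851 CPM elsewhere. Ftl1 has 8 other gene models with at least 90% identity over at least 150 bases, whose counts came to 0.671% of its own, whereas Fth1 has 1 such copy and overlapped between sets, at 1307 to 3117 CPM there and 1519 to 2877 CPM elsewhere. How reads that match several places were counted in each set was not given in the sources used here, and its part in these levels was not tested. The level of Ftl1 and the ratio of the ferritin chains therefore cannot be compared between the Ctrl set and the others, while each KO library was compared only with controls of its own set.

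**Figure D2:**
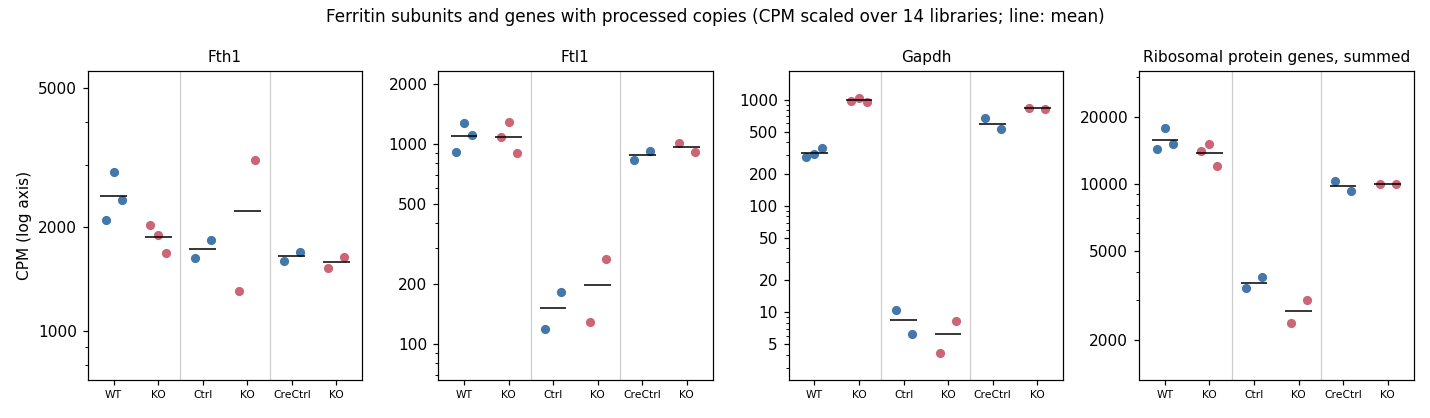
Each panel plots CPM (log axis, scaled over all 14 libraries) in every library for Fth1, Ftl1, Gapdh and the sum of 83 ribosomal protein genes, with controls in blue, KO in red and the group mean as a line. The 4 libraries of the Ctrl set are low for Ftl1 (119 to 264 CPM), Gapdh and the ribosomal protein genes and not for Fth1.

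The exporter ferroportin showed the widest swings. Slc40a1 was at 8.81, 10.9 and 9.34 CPM in WT (100, 117 and 124 reads) and at 1.07, 0.0676 and 0.200 CPM in their KO (16, 1 and 3 reads). All KO libraries lay far below all WT libraries, and Slc40a1 fell by 4.41 on the log2 scale with an SE of 0.91 (adjusted p = 0.00586). Against CreCtrl, at 2.86 and 5.63 CPM, the KO libraries stood at 0.278 and 0.624 CPM, and Slc40a1 fell by 3.20 with an SE of 0.61 (adjusted p = 0.0188). That call was lost without CreCtrl replicate 2 (adjusted p = 0.0684) and where all 14 libraries shared an estimate of the spread (0.148). Libraries of the Ctrl set scattered with no order by genotype: 12.7 and 2.84 CPM in Ctrl and 0.564 and 11.6 CPM in KO (-0.34 ± 1.32, adjusted p = 0.974).

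Ferroportin is abundant in macrophages, and the myeloid genes in these libraries followed the same course. Tyrobp, an adaptor of myeloid receptors, was at 68.1, 114 and 82.9 CPM in WT and at 10.6, 2.91 and 2.54 CPM in their KO. It was at 39.4 and 14.7 CPM in Ctrl and at 4.26 and 56.1 CPM in KO, so the KO library with high Slc40a1 was also the one with high Tyrobp. It was at 13.8 and 28.2 CPM in CreCtrl and at 1.23 and 3.46 CPM in KO. Over the 14 libraries, with set means removed, Slc40a1 and Tyrobp had a Pearson r of 0.986, which describes libraries that share their genotype groups and their preparation. Of 11 myeloid genes, 10 were called lower in KO against WT and 1, Csf1r, higher, and the sum of the 10 without Csf1r was 1357 to 1632 CPM in WT against 87.1 to 191 CPM in KO, 299 to 703 against 76.1 to 833 CPM in the Ctrl set, and 262 to 558 against 49.5 to 77.2 CPM in the CreCtrl set. Of all genes tested, 19.0% were called lower and 16.1% higher against WT. No myeloid gene was at 0 in every KO library of a set. The part of these cells in the Slc40a1 difference was not tested.

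Against WT, with TMM scaling, the ferroxidases moved in opposite directions, and in neither of the other sets were both called. Heph, which sits in the membrane, was at 26.1, 21.6 and 25.5 CPM in WT and at 47.3, 56.1 and 63.2 CPM in their KO, without overlap, and rose by 1.18 ± 0.17 (adjusted p = 0.00106). In the CreCtrl set 49.5 and 27.1 CPM stood against 82.2 and 118 CPM, and Heph rose by 1.38 ± 0.30 (adjusted p = 0.0295). Beside Ctrl the KO libraries, at 93.6 and 83.1 CPM, lay between the controls at 62.7 and 104 CPM (0.09 ± 0.30, adjusted p = 0.972). The KO effect on Heph was larger in the CreCtrl and WT sets than in the Ctrl set by 1.32 ± 0.41 and 1.24 ± 0.38, and neither difference passed (adjusted p = 0.452 and 0.0773).

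Cp, the ferroxidase that RPE and glial cells secrete, was at 161, 93.1 and 60.7 CPM in WT and at 35.5, 20.4 and 8.62 CPM in their KO. All KO libraries were below all WT libraries although each group spread over more than 2-fold, and Cp fell by 2.29 on the log2 scale with an SE of 0.51 (adjusted p = 0.00845). The Ctrl set had the same course, at 175 and 43.5 CPM in Ctrl against 29.7 and 7.18 CPM in KO, a difference of -2.57 ± 0.90. Cp was the only gene of the group with an unadjusted p under 0.05 in that set, and its adjusted p was 0.317 with edgeR and 0.0159 with DESeq2. No such difference was seen against CreCtrl, with 52.9 and 26.3 CPM in the controls and 45.9 and 30.5 CPM in KO (-0.06 ± 0.34, adjusted p = 0.912). The KO effects in the WT set and in the CreCtrl set differed by -2.13 ± 1.00 (adjusted p = 0.342). Cp followed Fbln1, a gene of the fibroblast list, with a Pearson r of 0.964 over the 14 libraries with set means removed, and Fbln1 stood at 163 and 102 CPM in KO against 116 and 86.5 CPM in CreCtrl. Most of that list did not share this, since 8 of its 10 genes were called lower against CreCtrl, where 12.2% of all genes were. The median log2 fold change over the list was -3.56. The part of these cells in the Cp difference was not tested. Cp shares 108 exon bases with Hps3 on the opposite strand, and whether the counting used strand was not given in the sources used here.

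**Figure D3:**
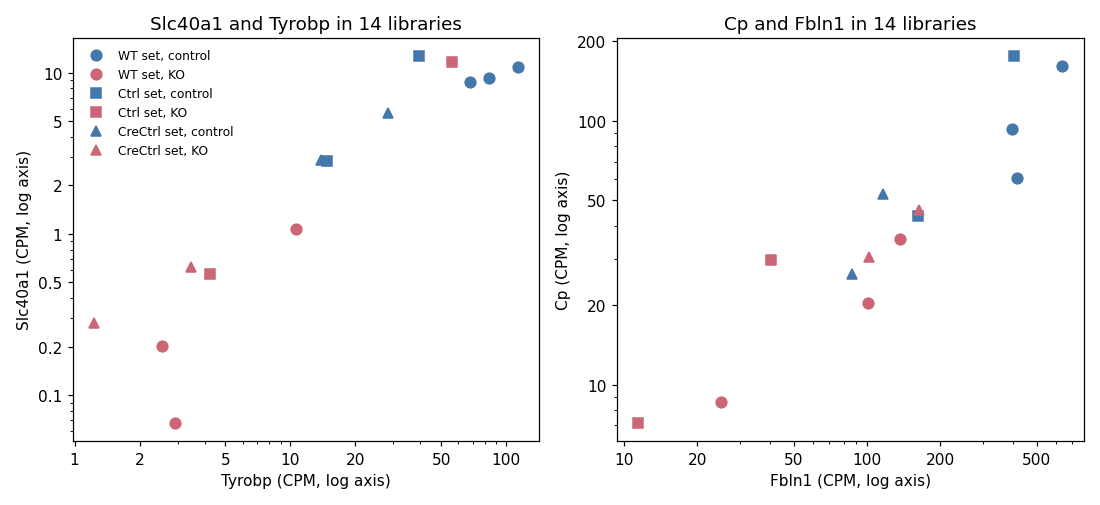
Each point is a library, with Slc40a1 against Tyrobp on the left and Cp against Fbln1 on the right (CPM, log axes). The set is shown by the shape and the genotype by the colour, blue for controls and red for KO. The KO library of the Ctrl set with 11.6 CPM of Slc40a1 and 56.1 CPM of Tyrobp lies among the controls.

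**Figure D4:**
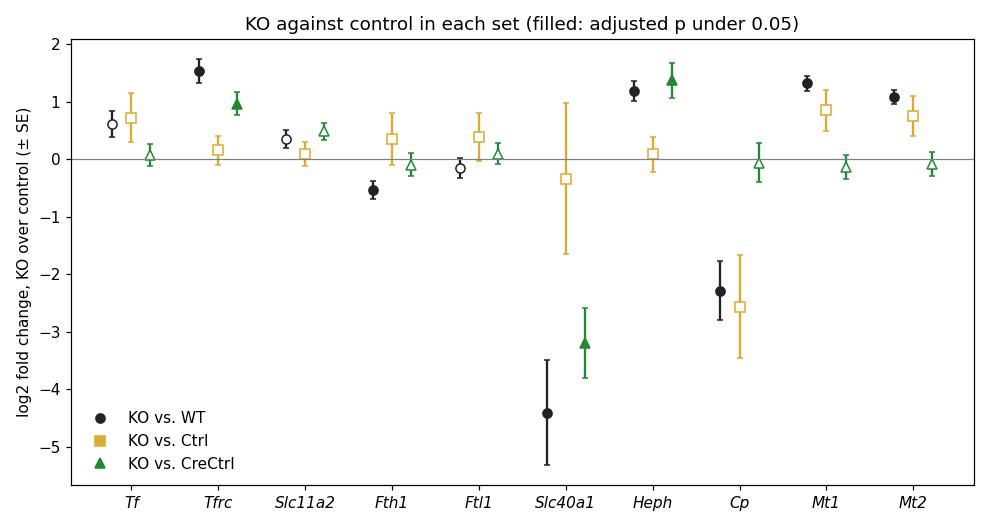
For each gene the log2 fold change of KO over control (± SE) is plotted for the WT, Ctrl and CreCtrl sets, with filled symbols where the adjusted p was under 0.05. Tfrc, Heph and Slc40a1 have filled symbols in 2 sets, Fth1, Cp, Mt1 and Mt2 in the WT set only, and no symbol of the Ctrl set is filled.

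The metallothioneins rose together in KO against WT. Mt1 was at 1517, 1410 and 1744 CPM in WT and at 3674, 4134 and 3882 CPM in their KO, and it rose by 1.32 ± 0.14 (adjusted p = 0.000170). Mt2 was at 964, 849 and 950 CPM in WT and at 1877, 2126 and 1868 CPM in their KO, and it rose by 1.09 ± 0.13 (adjusted p = 0.000314). Replicates of both genes were tight, and KO lay well clear of WT. In the Ctrl set KO was above Ctrl for both genes, at 2744 and 4762 against 2151 and 2004 CPM for Mt1 and at 1588 and 1412 against 1128 and 655 CPM for Mt2, without passing (0.85 ± 0.36, adjusted p = 0.452, and 0.75 ± 0.34, adjusted p = 0.501). In the CreCtrl set Mt1 was at 2970 and 3095 CPM in the controls and at 2953 and 2566 CPM in KO (-0.14 ± 0.21, adjusted p = 0.656). Mt2 was there at 1510 and 1670 CPM in the controls and at 1668 and 1335 CPM in KO (-0.08 ± 0.21, adjusted p = 0.796). The KO effect on Mt1 was larger in the WT set than in the CreCtrl set by 1.57 ± 0.31 (adjusted p = 0.0326), where 1.49% of 17662 genes passed, and that on Mt2 by 1.27 ± 0.31 (adjusted p = 0.0598). CreCtrl libraries thus stood nearer to the KO libraries of the WT set than to WT in both genes, although genotype and set cannot be told apart across sets. Mt2 shares 432 exon bases with the antisense model Gm45774, which was counted at up to 146 reads.

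In KO against WT, 7 of the 10 genes were called. Those higher were Tfrc, Heph, Mt1 and Mt2 and those lower were Fth1, Cp and Slc40a1, and 6 of the 7 also changed by more than 1.5-fold. The background was dense, since 16.1% of the 15428 genes tested were called higher and 19.0% lower. The KO libraries lay wholly above WT for 5 of the genes and wholly below for 3, as they did for 23.8% and 28.3% of all genes tested. The median log2 fold change was 0.48 over the 10 genes and -0.08 over all genes. With library size alone as the scaling, the 5658 genes called over the table split into 1716 higher and the rest lower, against 2490 higher of 5419, and the same number of the 10 genes was called in each direction.

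In KO against Ctrl none of the 10 genes was called with edgeR and 1 with DESeq2, among 15287 genes of which edgeR called 0 (0%) and DESeq2 7.27%. Clic4 itself was not called there with edgeR. Without adjustment 1 of the 10 had a p under 0.05, as did 12.1% of all genes. The KO libraries lay wholly above Ctrl for 4 genes and wholly below for 1, against 18.3% and 22.7% of all genes. In KO against CreCtrl 3 genes were called, Tfrc and Heph higher and Slc40a1 lower, where 3.60% of 15963 genes were called higher and 12.2% lower. There the KO libraries lay wholly above the controls for 3 genes and wholly below for 2, against 34.9% and 36.8% of all genes. The median log2 fold change of the 10 genes was 0.25 against Ctrl and 0.01 against CreCtrl, beside 0.01 and -0.02 over all genes. With library size alone the calls against CreCtrl over the table split into 219 higher of 2976, against 575 higher of 2529. No gene of the group differed in its KO effect between the Ctrl and CreCtrl sets, where edgeR called 0% of 17662 genes, while 5 of the 10 had an unadjusted p under 0.05 there, as did 8.75% of all genes.

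Where all 7 KO libraries were fitted against all 7 controls with the set as a term, 8 genes were called in a table with 20.1% of 16181 genes called higher and 18.6% lower. Slc11a2, which passed in no set on its own, rose by 0.37 ± 0.10 (adjusted p = 0.00805). Tf rose by 0.55 ± 0.20 (adjusted p = 0.0426), a call that was lost without any 1 of several libraries (adjusted p up to 0.0903 without KO replicate 2 of the WT set). Tfrc, Heph, Mt1 and Mt2 rose by 1.03, 0.98, 0.84 and 0.72, and Slc40a1 and Cp fell by 2.86 and 1.70. Fth1 and Ftl1 were at -0.10 ± 0.20 and 0.13 ± 0.18 and did not pass. With library size alone 4 of the 10 genes were called, as were 37.9% of all genes, and the calls over the table split into 1531 higher of 6129, against 3252 higher of 6255.

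Because the sum of the RPE genes was itself higher in KO, the fits were repeated with the reads on the 10 RPE genes in place of the library size, a scaling added after the data were seen. Of these 10 genes, with TMM scaling, 9 were called higher and 1 lower over all sets, beside 20.1% and 18.6% of all genes. Best1 stood at 2.60 and 3.26 CPM in CreCtrl against 1.39 and 1.32 CPM in their KO. The RPE scaling moved the median of all genes to log2 fold changes of -1.98 against WT, -0.63 against Ctrl and -0.46 against CreCtrl. In the WT set no gene of the group was then called higher and 9 were called lower, where 79.8% of all genes were called lower. Tfrc, called higher before, was at -0.38 (adjusted p = 0.280), and Heph, Mt1 and Mt2 fell by 0.73, 0.58 and 0.83. Slc40a1 was at -6.27 and Cp at -4.28. Such a scaling moves all genes of a comparison by about the same amount, so it cannot test where a gene stands relative to the median. Per 1000 reads on the RPE genes, Tfrc had 0.463 to 0.832 reads in WT and 0.470 to 0.611 reads in KO. In the CreCtrl set the calls of Tfrc and Heph remained, at 0.54 (adjusted p = 0.0493) and 0.95 (adjusted p = 0.0398), as did that of Slc40a1, which fell by 3.69 (adjusted p = 0.0169), where 0.395% of all genes were called higher and 23.1% lower.

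**Figure D5:**
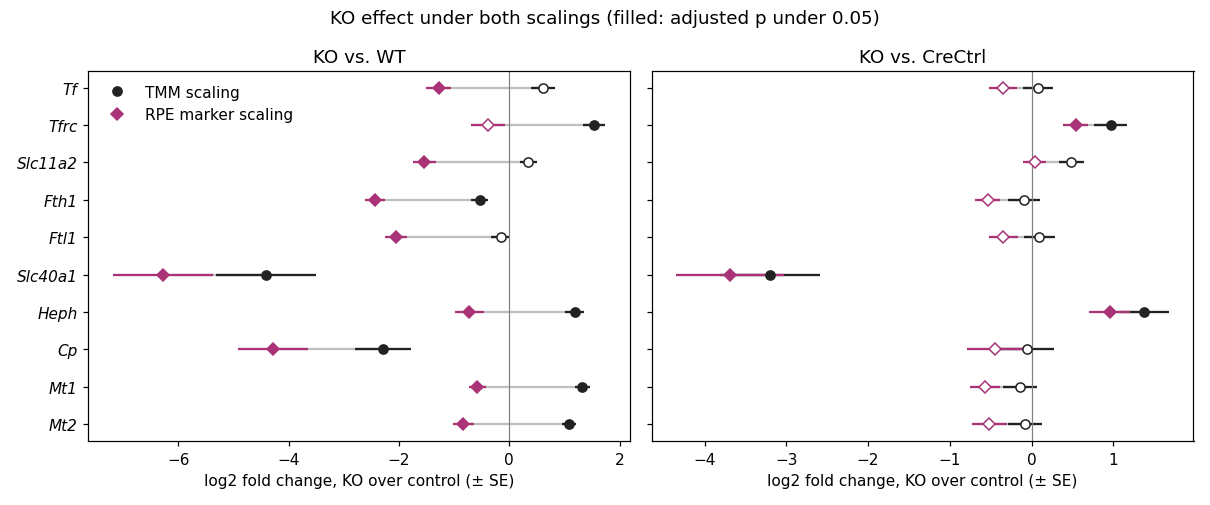
For each gene the log2 fold change of KO over control (± SE) is plotted with TMM scaling (black circles) and with scaling to the reads on the RPE genes (purple diamonds), filled where the adjusted p was under 0.05. Against WT (left) the values of Tfrc, Heph, Mt1 and Mt2 cross 0 between the scalings, while against CreCtrl (right) those of Tfrc, Heph and Slc40a1 keep their side and their call.

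Around these 10 genes, 91 other genes of metal handling in 8 lists were read in the same fits. In KO against WT 82 could be tested, of which 36 were called higher and 13 lower, with a median log2 fold change of 0.43. Of all genes 16.1% were called higher and 19.0% lower there, with a median of -0.08. Against Ctrl 82 were tested and none was called with edgeR, against 3 with DESeq2, which called 7.27% of all genes. Against CreCtrl 84 were tested, with 7 called higher and 6 lower, beside 3.60% and 12.2% of all genes. Scaled to the RPE genes, 72 were called against WT, where 80.1% of all genes were, so the counts by direction below hold for TMM scaling.

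In the list of iron uptake and receptors, 6 of 12 tested were called lower against WT and 1 higher, with a median of -1.69. Of all genes 19.0% were called lower and 16.1% higher. Slc11a1, the phagosomal iron transporter of macrophages, fell by 3.47 with an SE of 0.65 (adjusted p = 0.00352), and the ferrireductase Steap3 fell by 3.49 with an SE of 0.45 (adjusted p = 0.000532). Tfr2, another transferrin receptor, was low in WT (2.20 ± 1.37 CPM, SD, n = 3) and fell by 4.86 with an SE of 1.60 (adjusted p = 0.0440). Slc11a1 and Steap3 were also lower against CreCtrl, by 2.46 (adjusted p = 0.00457) and 1.45 (adjusted p = 0.0218), while Slc11a1 stood at 0.04 against Ctrl (adjusted p = 0.996).

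In the other 7 lists more genes were called higher than lower against WT, where 16.1% of all genes were called higher and 19.0% lower. All 3 of the iron chaperones Pcbp1, Pcbp2 and Pcbp3, which deliver iron to ferritin and enzymes, rose, by 1.12, 0.90 and 1.19, and they were the 3 called of 4 tested in the storage list. Of 5 iron sensors 4 rose, among them Aco1, which turns into iron regulatory protein 1 when it loses its iron-sulphur cluster, by 1.32 ± 0.14 (adjusted p = 0.000191), and the oxygen-regulated transcription factors Epas1 and Hif1a by 1.14 and 0.95. Among 14 genes of mitochondrial iron and iron-sulphur clusters 9 rose and 1 fell, led by Isca1, Glrx5 and Iscu at 1.55, 1.52 and 1.17. Bmp6 and Bmp2, which induce hepcidin in the liver, rose from 55.0 to 156 CPM and from 51.2 to 142 CPM in the group means. They were the only calls among the 5 tested genes of the export and hepcidin list, where Hamp, hepcidin itself, was too low to be tested. Against CreCtrl, 0 of 5 sensors, 1 of 14 mitochondrial genes and 2 of 4 storage genes were called higher, and none of these lower. Of 6 export and hepcidin genes tested there, 0 were called higher and 1 lower. Of all genes 3.60% were called higher and 12.2% lower against CreCtrl.

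In the haem list 8 of 17 rose and 2 fell. Flvcr2, a transporter of haem and choline, rose by 2.43 ± 0.13 (adjusted p = 2.2e-05) and by 0.98 against CreCtrl (adjusted p = 0.0344). Alad, the second enzyme of haem synthesis, rose by 1.46, and the efflux pump Abcg2, which is also high in blood vessels, fell by 3.87 against WT and by 3.42 against CreCtrl (adjusted p = 0.00522). In the zinc and metallothionein list 4 of 15 rose and 3 fell, beside 16.1% and 19.0% of all genes. The importer Slc39a4 was at 2.00, and Slc39a11 and Slc39a10 were at -1.998 and -1.94. In the copper list 5 of 10 rose and 1 fell, with the superoxide dismutase Sod1 at 1.78, the copper importer Slc31a1 at 1.13 and the extracellular enzyme Sod3 at -1.24. Slc31a1 was also higher against CreCtrl, by 0.70 (adjusted p = 0.0425). The erythrocyte sums are given above, and the summed endothelial genes stood beside these lists, at 336 to 608 CPM in WT against 69.3 to 169 CPM in KO, and their part in the lists was not tested.

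The genes whose levels followed each member most closely over the 14 libraries, with set means removed, differed between members. Tfrc was nearest to Atp5b, Tmem30a and Ndfip2 (Pearson r of 0.989, 0.988 and 0.985), and Heph to Nfe2l1, Vps35 and Prkacb (0.992, 0.991 and 0.980). Among the genes closest to Mt1 were Baiap2l2 and Rogdi (0.986 and 0.980), and Mt2 was nearest to Rnf215, Csad and Dpp7 (0.969, 0.965 and 0.962). Slc40a1 was nearest to a gene model listed only as ENSMUSG00000089672 (0.993), and then to Tyrobp and Nckap1l (0.986 and 0.983), the latter also known from blood cells. Cp was nearest to Fbln1, Col2a1 and Tsc22d1 (0.964, 0.955 and 0.955), of which the first and the second code for matrix proteins. Fth1 was nearest to Coro1b, Copz2 and Blvrb (0.942, 0.936 and 0.913), and Ftl1 to the ribosomal protein gene Rpl28, then Syngr2 and Med27 (0.944, 0.901 and 0.898). Rpl28 was, like Ftl1, low in the Ctrl set, at 4.74 to 13.96 CPM against 157 to 303 CPM in the other libraries. Tf was nearest to B9d1, Ntmt1 and Tmem230 (0.961, 0.951 and 0.943) and Slc11a2 to Irf2bp1, Cisd2 and Gnl3l (0.960, 0.960 and 0.958). These are the highest of 17662 correlations over libraries that share genotype groups, and they are given as a description.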

How the data were processed

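RPE RNA of 14 mice was sequenced as stranded, paired-end mRNA libraries. Per the labels, the submitters' processing notes list bcl2fastq 2.19, STAR 2.5.2, Cufflinks 2.1.1 and HTSeq 0.11.2 with GRCm38, and the authors deposited raw read counts per gene, with no normalization. The counting parameters and the handling of multiply mapped reads were not given in the sources used here. Counts were tested with edgeR 4.0.16 (R 4.3.3): TMM, filterByExpr, quasi-likelihood F test, Benjamini-Hochberg adjustment over all genes, KO against control within each set, all sets with the set as a term, and differences between sets in a fit of 6 groups. SE is the log2 fold change divided by the square root of F. DESeq2 1.42.0 was an alternative. The scripts were tested on simulated data. Genes were annotated with GENCODE M21 (42329 of 42687 matched). RPKM used merged exon length.

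The members and gene lists were chosen with earlier results of these data known. The genes named are the 10 members, up to 3 genes per list with the largest change among those called in KO vs. WT, and the 3 genes most like each member by Pearson r of log2 CPM (prior count 2), of which 1 for Mt1 is not reported here. The study lists the sequenced mice as males and describes Ctrl mice as littermates of KO mice, but it does not say which libraries shared a litter. The replicates were taken as separate mice of a genotype, so p-values measure the spread between these mice.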

Additional observations from a re-analysis of the deposited data

Results flagged for a closer look

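Among the 7 KO libraries, taken as samples of 1 genotype on a common scaling, KO replicate 2 of the Ctrl set was high for Fth1, at 3117 CPM with the next library at 2019 CPM, and for Slc40a1, at 12.1 CPM with the next at 1.09 CPM. Its gap to the nearest library, as a share of the range, was 0.607 for Fth1 and 0.915 for Slc40a1, above Dixon's 95% critical value for 7 samples, which chance exceeds in about 1 group in 20. The same library was the highest of its set for Tyrobp.

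The KO effect on Tfrc was larger in the WT set than beside Ctrl by 1.52 on the log2 scale, and that on Mt1 larger than beside CreCtrl by 1.57, both by the interaction term of edgeR's fit of all libraries (adjusted p = 0.0151 and 0.0326). Tfrc was higher in 3 of 3 KO libraries than in every WT library and in 1 of 2 than in every Ctrl library. Mt1 was higher than every control in 3 of 3 KO libraries of the WT set and in 0 of 2 of the CreCtrl set.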

How the results depend on the processing

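Depth limited Slc40a1 most, with 1 to 18 reads in 6 of 7 KO libraries, and the Ctrl and CreCtrl sets had 2 mice a group. The cause of the changes below was not tested. With RLE size factors the number of the 10 genes called stayed within 1.5 times in every comparison. With library size alone 4 genes were called over all sets, and against Ctrl Heph (-0.0125) and Slc11a2 (-0.0291), against CreCtrl Tf (-0.14) and Ftl1 (-0.12), and over all sets Ftl1 (-0.13) changed sign. That scaling moved the median over all genes to -0.32 against WT, -0.11 against Ctrl and -0.24 against CreCtrl. Keeping every gene with at least 1 count, 1 of the 10 genes and 5 list genes were called against Ctrl (6.92% of all genes) and 31 list genes against CreCtrl (19.5%), and 3, 3 and 2 genes differed in KO effect between the WT and Ctrl, the WT and CreCtrl, and the Ctrl and CreCtrl sets (8.29%, 4.04% and 3.24%). With at least 10 counts in every library, 2 genes differed between the WT and CreCtrl sets (4.12%). DESeq2 called 1 of the 10 genes and 3 list genes against Ctrl (7.27%) and 33 list genes against CreCtrl (25.7%), and found 2 genes that differed between the WT and Ctrl (9.40%) and 2 between the WT and CreCtrl sets (6.67%). In the fit of 6 groups 3 list genes were called against Ctrl (3.67%) and 4 against CreCtrl (3.99%).

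Replicate numbers were shared between groups, and whether they pair the mice could not be decided from these data. Deviations of same-numbered libraries correlated at -0.02, 0.04 and 0.13 for WT, 0.0007 for Ctrl and 0.13 for CreCtrl. With 2 libraries a group the deviations mirror each other, so in the Ctrl and CreCtrl sets the check holds little information. With the replicate number as a block 1 of the 10 genes was called against Ctrl (Cp, adjusted p = 0.0365; 0.739% of all genes) and 21 list genes against CreCtrl (24.0%). In the WT set each WT library correlated best with its own number except WT replicate 1.

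Scaled to the reads on the RPE genes, the sign changed against WT for Tf (-1.28), Tfrc (-0.38), Slc11a2 (-1.54), Heph (-0.73), Mt1 (-0.58) and Mt2 (-0.83). It changed against Ctrl for Tfrc (-0.48), Fth1 (-0.29), Ftl1 (-0.27), Heph (-0.55) and Slc11a2 (-0.55), with 1 list gene called, and against CreCtrl for Tf (-0.35) and Ftl1 (-0.34). Over all sets it changed for Tf (-0.62), Tfrc (-0.15), Ftl1 (-1.05), Heph (-0.21), Slc11a2 (-0.80), Mt1 (-0.35) and Mt2 (-0.47).

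Leaving out each library in turn, 6 to 7 of the 10 genes were called against WT, 0 against Ctrl, 2 to 3 against CreCtrl and 7 to 8 over all sets, and 0 to 1 list genes against Ctrl and 4 to 38 against CreCtrl, 38 of them without CreCtrl replicate 1, 5 without CreCtrl replicate 2 and 4 without KO replicate 2. Over all genes, the share called against CreCtrl was also highest without CreCtrl replicate 1. It was lower without CreCtrl replicate 2 or KO replicate 2 than with all libraries. The swing was thus not confined to the list genes, and each of these fits left 1 library in a group. With a library left out, uncalled log2 fold changes ranged across 0 for Ftl1 against WT (-0.27 to 0.0533) and over all sets (-0.0181 to 0.21). Against Ctrl the range was -0.23 to 0.50 for Heph, -3.76 to 1.10 for Slc40a1, -0.10 to 0.37 for Tfrc, -0.40 to 0.85 for Fth1 and -0.23 to 0.81 for Ftl1. Against CreCtrl it was -0.50 to 0.54 for Cp, -0.0036 to 0.18 for Tf, -0.17 to 0.0069 for Fth1 and -0.23 to 0.0760 for Mt2.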
